A study of Homo sapiens with 4 samples.

Results

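The nuclear genes of respiratory complexes II to V were examined for c-MYC at their promoters. Members were the nuclear protein-coding genes whose symbol begins with SDHA, SDHB, SDHC, SDHD, UQCR, UQCC or ATP5, or with COX and a digit, together with CYC1 and CYCS and without read-through genes. The rule reads only names and locations, not binding, and it gave 70 of the 19336 nuclear protein-coding genes of GENCODE version 44. c-MYC chromatin immunoprecipitation with sequencing (ChIP-seq) was performed in MIA PaCa-2, a long-established line of human pancreatic ductal adenocarcinoma (PDAC) cells. The cells received the solvent DMSO, the inhibitor AMG510 at 100 nM or the MEK inhibitor trametinib at 10 nM, in each case for 8 h. Each treatment gave 1 library pulled down with a c-MYC antibody, and DMSO gave 1 more with non-specific IgG, so the drug-treated cells had no IgG library of their own. No group had a replicate, all cells came from 1 line, and no test between treatments was possible. Peak lists hold no expression, so the line could not be checked against marker genes, and the level of c-MYC in the cells was not measured in them.

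Respiration passes electrons along protein complexes of the inner mitochondrial membrane. Complex II (succinate dehydrogenase, the SDH genes) takes electrons from succinate, complex III (the cytochrome bc1 complex, UQCR genes and CYC1) hands them to cytochrome c (CYCS), and complex IV (cytochrome c oxidase, COX genes) passes them to oxygen. Complexes III and IV pump protons, and complex V (ATP synthase, ATP5 genes) uses the resulting gradient to make ATP. Complexes III, IV and V also contain subunits encoded in mitochondrial DNA, and dedicated assembly factors insert haem, copper, flavin and iron-sulfur groups. c-MYC with its partner MAX binds DNA at the E-box CACGTG and at related sequences such as CACGCG, and it is known to act on many genes of mitochondrial biogenesis.

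The lists held 2966 peaks for IgG and 5431 to 10378 for c-MYC, and 22700000 to 24800000 tags entered peak calling in each library. A tag is a read extended to the fragment length, and its number at the summit, the highest point of a peak, was recovered from the deposited values. Between 7 and 8 tags were enough for a call where the background was genome-wide, and c-MYC promoter peaks had a median of 13 to 16 tags. A gene without a peak therefore lay below the calling limit, which is not the same as an absence of c-MYC. Less c-MYC at a site and a lower yield of the pull-down cannot be told apart with 1 library per treatment.

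A promoter peak here has its summit within 1 kb of the start of a protein-coding transcript of the gene. In DMSO c-MYC, 20 of 70 members (28.6%, 95% Wilson interval 19.3 to 40.1) had a promoter peak, where 24.3% of all genes had one. In AMG510 c-MYC the count was 13 of 70 (18.6%, 11.2 to 29.2) and the share over all genes 15.4%. In trametinib c-MYC it was 9 of 70 (12.9%, 6.91 to 22.7) and 11.8%. In each c-MYC list the share of members was close to that of all genes, and the interval held it. In IgG, 1 of 70 members (1.43%) had a promoter peak, SDHAF1, with 0.569% of all genes. Over the c-MYC lists together, 28 of 70 members (40.0%, 29.3 to 51.7) had a promoter peak in at least 1 list and 42 in none. Of all genes, 31.8% had one in at least 1 list, and the interval held this share too.

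Most of these peaks were modest. Fold enrichment is the tags at the summit over the local background, with a small constant added to both. It ran from 3.28 to 7.56 at the 22 member peaks in DMSO, with a median of 4.55. Over all promoter peaks of that list the median was 4.90. In AMG510 the 13 member peaks ran from 3.20 to 5.71 with a median of 4.55 against 4.64, and in trametinib the 9 ran from 3.37 to 8.12 with a median of 4.45 against 4.71. Above 5-fold, 6 of 70 members (8.57%, 95% Wilson interval 3.99 to 17.5) had a promoter peak in DMSO, namely ATP5F1C, ATP5MC2, COX15, COX18, UQCC6 and UQCRH, where 12.2% of all genes did. In AMG510 the members above 5-fold were ATP5PB, ATP5PF, COX15 and COX16 (5.71%, 2.24 to 13.8, all genes 5.77%), and in trametinib they were ATP5MC3 and COX10 (2.86%, 0.787 to 9.83, all genes 4.88%). Each of these intervals held the share of all genes, so no order between members and all genes is read from them. None of the member peaks in the c-MYC lists overlapped an IgG peak.

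**Figure D1:**
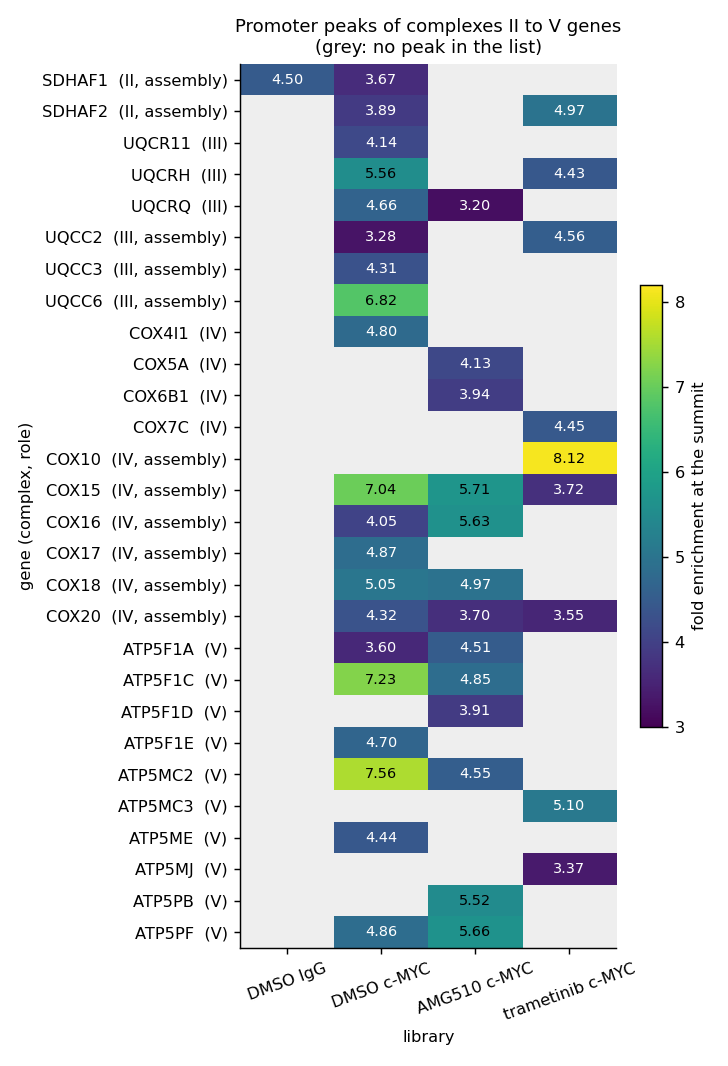
Fold enrichment at the summit for the 28 members with a promoter peak in at least 1 c-MYC list (rows, with the complex and role) in the 4 libraries (columns), the strongest peak standing for a gene with more than 1. Grey cells had no peak in the list. COX15 and COX20 are filled in all 3 c-MYC columns, the highest value is 8.12 for COX10 in trametinib, and SDHAF1 is the only member filled in IgG.

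The DNA under these peaks is shown first for the 3 member peaks that held the canonical E-box CACGTG within 100 bp of the summit, since this is the sequence c-MYC and MAX are known to bind. In DMSO 2 of 22 member peaks held it (9.09%, all promoter peaks 16.9%), in AMG510 0 of 13 (all promoter peaks 14.4%) and in trametinib 1 of 9 (11.1%, all promoter peaks 17.3%). The E-box of ATP5PF lay 85 bp from the DMSO summit and upstream of the canonical start, that of COX20 lay 80 bp from a DMSO summit in intron 1, and that of COX10 lay 43 bp from the trametinib summit, also in intron 1. Each is given on the strand of its gene in GRCh38, 5′ to 3′, with the E-box in capitals. The COX10 site was picked after its value was seen.
ATP5PF, chr21:25735489-25735518, minus strand: cggcgagggctcCACGTGcagcgtctctcc
COX20, chr1:244835825-244835854, plus strand: ctaggcccggagCACGTGtcactggcttct
COX10, chr17:14069688-14069717, plus strand: ttctcttattacCACGTGcgaggccgtggt

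With the noncanonical CACGCG counted as well, 6 of 22 DMSO member peaks held a site (27.3%, all promoter peaks 36.9%), 4 of 13 in AMG510 (30.8%, all 32.5%) and 3 of 9 in trametinib (33.3%, all 35.9%). The 6 sites within 39 bp of a summit, chosen after their values were seen, are printed with CACGCG in capitals, or CGCGTG where the motif is on the other strand. The COX15 site lay 3 bp from the AMG510 summit and 5 bp from the trametinib summit, and the first ATP5MC2 site lay 1 bp from the AMG510 summit. The second ATP5MC2 site lay 24 bp from the DMSO summit, and both are in intron 1. The UQCC6 site lay 15 bp from the DMSO summit, the UQCC2 site 25 bp from the trametinib summit, in the untranslated part of exon 1, and the ATP5F1E site 39 bp from the DMSO summit. The sites of COX15, UQCC6 and ATP5F1E are upstream of the canonical starts.
COX15, chr10:99732327-99732356, minus strand: cttttcatgctcCACGCGttcctccctcgt
ATP5MC2, chr12:53675998-53676027, minus strand: ctgtgcgctgcgCACGCGcgcgggacacct
ATP5MC2, chr12:53675877-53675906, minus strand: agttggctcttcCGCGTGccggtgacctcc
UQCC6, chr12:103965954-103965983, minus strand: tctctgtagtacCGCGTGgtactcactgcg
UQCC2, chr6:33711684-33711713, minus strand: ctaaggcgggaaCACGCGgggcccaagatg
ATP5F1E, chr20:59032625-59032654, minus strand: gcttcccgaaagCACGCGgctcagtggtcc

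By role, peaks in DMSO were counted at 10 of 19 assembly factors (52.6%) and at 10 of 48 subunits (20.8%), beside 24.3% of all genes. In AMG510 the counts were 4 of 19 assembly factors (21.1%) and 9 of 48 subunits (18.8%), beside 15.4% of all genes. In trametinib they were 5 of 19 (26.3%) and 4 of 48 (8.33%), beside 11.8%. Subunit peaks in DMSO were spread over complexes III, IV and V, with 6 of the 10 at ATP synthase. The 6 isoforms of restricted tissue expression, COX4I2, COX6A2, COX6B2, COX7A1, COX7B2 and COX8C, had no promoter peak in any list, nor had the 2 paralogs UQCRHL and ATP5MGL. The 48 subunits include these isoforms and paralogs, which lowers the subunit share. Above 5-fold in DMSO were the assembly factors COX15, COX18 and UQCC6 and the subunits ATP5F1C, ATP5MC2 and UQCRH. No interval was computed by role, and the difference between roles was not tested.

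**Figure D2:**
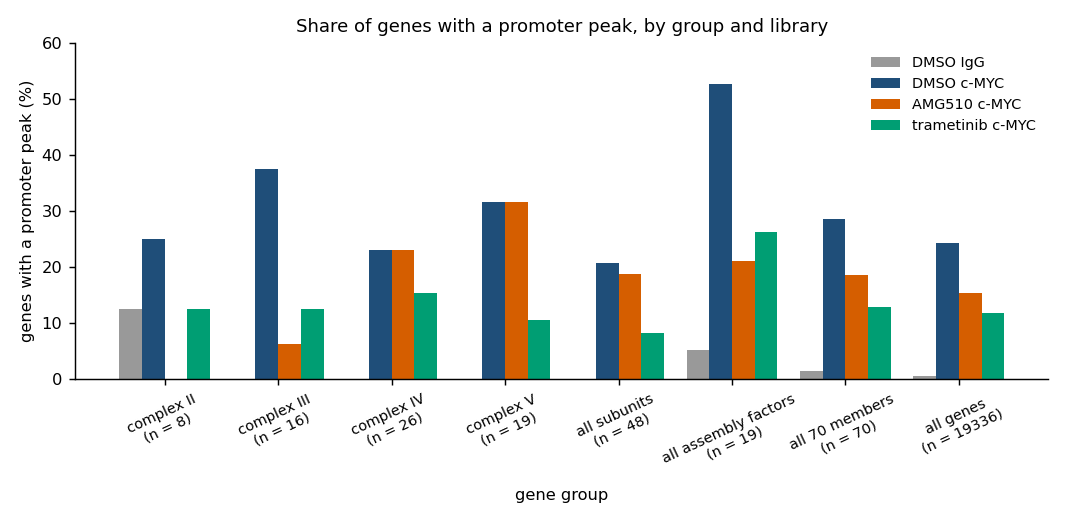
Share of genes with a promoter peak (vertical axis, percent) for each complex, for all subunits, all assembly factors, all members and all genes (horizontal axis, with the number of genes), 1 bar per library and no error bars since each library is single. In DMSO the bar of assembly factors stands at 52.6%, that of subunits at 20.8% and that of all genes at 24.3%. The subunits include the restricted isoforms and the paralogs, and the difference between roles was not tested.

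Complex II had no promoter peak at its structural genes. SDHA, which carries the flavin, SDHB, which carries the iron-sulfur clusters, and the membrane anchors SDHC and SDHD had none in any of the 4 lists. The closest summit to any of them was 1590 bp from an internal start of SDHB, within the gene, in DMSO, with 11 tags and 3.58-fold enrichment, and it was the only member peak between 1 and 2 kb from a start. In DMSO c-MYC, peaks were called at 2 of its 4 assembly factors, SDHAF1 and SDHAF2, where 24.3% of all genes had one. SDHAF3 and SDHAF4 had none in any list.

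SDHAF1, an assembly factor for the iron-sulfur subunit, had 10 tags (95% counting interval 4.8 to 18.4) at 3.67-fold in DMSO c-MYC and no peak in AMG510 or trametinib. In IgG it had 12 tags (6.2 to 21.0) at 4.50-fold. The IgG peak (chr19:35994488-35994637) lay 668 bp upstream of the start and the c-MYC peak (chr19:35995240-35995664) 443 bp downstream in the untranslated part of exon 1, and they did not overlap. Without SDHAF1, the DMSO count was 19 of 69 members. SDHAF2, which attaches the flavin to SDHA, had 9 tags (4.12 to 17.1) at 3.89-fold in DMSO, none called in AMG510, and 12 tags (6.2 to 21.0) at 4.97-fold in trametinib. The counting intervals of its DMSO and trametinib peaks overlapped, and both summits were also within 1 kb of the start of CPSF7.

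Of the 16 genes of complex III, 6 had a promoter peak in DMSO (37.5%), while AMG510 had 1 (6.25%) and trametinib 2 (12.5%). The shares of all genes were 24.3%, 15.4% and 11.8%. The 3 subunits called in DMSO were the small proteins UQCRH, UQCRQ and UQCR11. CYC1 (cytochrome c1), UQCRFS1 (the Rieske iron-sulfur protein), the core proteins UQCRC1 and UQCRC2, and the small subunits UQCRB and UQCR10 had none in any list. CYCS, the carrier between complexes III and IV, had none either, and its nearest c-MYC summit was 36859 bp away in AMG510.

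UQCRH, the hinge protein beside cytochrome c1, had 20 tags (12.2 to 30.9) at 5.56-fold in DMSO, a value above 79.9% of the peaks in that list. It had no promoter peak in AMG510, and 16 tags (9.15 to 26.0) at 4.43-fold in trametinib. The DMSO summit (chr1:46302722-46302967) was 876 bp and the trametinib summit 602 bp upstream of the start, and both were also within 1 kb of the start of LRRC41. UQCRQ had 18 tags (10.7 to 28.4) at 4.66-fold in DMSO and 11 (5.49 to 19.7) at 3.20-fold in AMG510, a fold exceeding only 1.34% of the peaks in the AMG510 list, and none in trametinib. UQCR11 was called in DMSO only, with 17 tags at 4.14-fold in intron 1.

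Among the assembly factors of complex III, UQCC6, a small membrane protein needed for assembly, had the strongest peak, with 18 tags (10.7 to 28.4) at 6.82-fold in DMSO and no peak in either drug list. That peak (chr12:103965852-103966152) was at an alternative start of UQCC6, at -8768 bp from the canonical one, and within 1 kb of the start of TDG, a DNA glycosylase gene. A weaker DMSO peak of 9 tags at 3.63-fold lay 523 bp downstream of the canonical UQCC6 start. UQCC2, a factor for the synthesis of cytochrome b, had 9 tags (4.12 to 17.1) at 3.28-fold in DMSO and 11 (5.49 to 19.7) at 4.56-fold in trametinib, with summits 376 bp apart and no overlap of the peaks. UQCC3 was called in DMSO only, with 12 tags at 4.31-fold, while UQCC1, UQCC4 and UQCC5 had none.

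Of the 26 genes of complex IV, 6 had a promoter peak in DMSO (23.1%), and the count was 6 in AMG510 (23.1%) and 4 in trametinib (15.4%). The shares of all genes were 24.3%, 15.4% and 11.8%. Most were at assembly factors: 5 of 9 in DMSO (COX15, COX16, COX17, COX18 and COX20), 4 of 9 in AMG510 (COX15, COX16, COX18 and COX20) and 3 of 9 in trametinib (COX10, COX15 and COX20). Of its 10 subunits outside the restricted isoforms, COX4I1 alone was called in DMSO, COX5A and COX6B1 in AMG510 and COX7C in trametinib. COX5B, COX6A1, COX6C, COX7A2, COX7B and COX8A had none, nor had the supercomplex factor COX7A2L or the assembly factors COX11, COX14 and COX19.

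COX15 and COX20 were the only members with a promoter peak in all 3 c-MYC lists, 2 of 70 (2.86%) where 5.6% of all genes had one in all 3. COX15, the enzyme that makes haem A for cytochrome c oxidase, had 20 tags (12.2 to 30.9) at 7.04-fold in DMSO, 16 (9.15 to 26.0) at 5.71-fold in AMG510 and 12 (6.2 to 21.0) at 3.72-fold in trametinib. The tags and the fold were highest in DMSO and lowest in trametinib, and the 3 counting intervals overlapped. Its summits lay 330, 217 and 209 bp upstream of the start (DMSO peak chr10:99732313-99732562), also within 1 kb of the start of CUTC. COX20, a chaperone for the mitochondrially encoded subunit COX2, had a DMSO peak in intron 1 with 20 tags (12.2 to 30.9) at 4.28-fold and another of 20 tags at 4.32-fold, at -810 bp from the canonical start. It had 13 tags (6.92 to 22.2) at 3.70-fold in AMG510 and 12 (6.2 to 21.0) at 3.55-fold in trametinib, both just upstream of the canonical start. The COX20 folds of the drug libraries exceeded only 13% and 6.11% of the peaks in their lists.

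COX10, which makes haem O, the substrate of COX15, had no promoter peak in DMSO or AMG510. In trametinib it had 23 tags (14.6 to 34.5) at 8.12-fold, above 97.4% of the peaks in the list and the highest value of any member in any list. The peak (chr17:14069531-14069811) had its summit 155 bp into the gene in intron 1, beside the E-box printed above, and no other protein-coding gene started within 1 kb. With 1 trametinib library, this value has no replicate check.

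The copper chaperone gene COX17 had 13 tags (6.92 to 22.2) at 4.87-fold in DMSO alone, 251 bp upstream of its start. COX18, which inserts part of COX2 into the membrane, had 12 tags (6.2 to 21.0) at 5.05-fold in DMSO and 11 (5.49 to 19.7) at 4.97-fold in AMG510, 85 bp apart within coding exon 1. COX16, another factor for COX2, had 12 tags (6.2 to 21.0) at 4.05-fold in DMSO and 14 (7.65 to 23.5) at 5.63-fold in AMG510, in adjacent peaks that did not overlap. Neither COX16 nor COX18 was called in trametinib. COX4I1, the gene of a regulatory subunit, had 18 tags at 4.80-fold in DMSO alone, within 1 kb of the start of EMC8 as well. Subunits called in a drug list alone had 10 tags at 4.13-fold for COX5A and 10 at 3.94-fold for COX6B1 in AMG510, and 15 at 4.45-fold for COX7C in trametinib. All 3 of these peaks lay in intron 1. The counting interval is 4.8 to 18.4 for 10 tags, 7.65 to 23.5 for 14 tags and 8.4 to 24.7 for 15 tags, also for the genes of complex V.

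Complex V had promoter peaks at 6 of its 19 genes in DMSO (31.6%), namely ATP5F1A, ATP5F1C, ATP5F1E, ATP5MC2, ATP5ME and ATP5PF. There were 6 in AMG510 (31.6%) and 2 in trametinib (10.5%). The shares of all genes were 24.3%, 15.4% and 11.8%. Of the 6 DMSO genes, 4 were also called in AMG510 and 0 in trametinib, where the peaks were at ATP5MC3 and ATP5MJ. Of all genes with a DMSO promoter peak, 43.1% were also called in AMG510 and 35.2% in trametinib. With 6 genes, no difference from these shares is read. In the catalytic head and the central stalk, the genes of the alpha (ATP5F1A), gamma (ATP5F1C) and epsilon (ATP5F1E) subunits were called in DMSO. That of delta (ATP5F1D) was called in AMG510 alone. The gene of the beta subunit, ATP5F1B, which carries the catalytic sites, had no peak in any list. ATP5MC1, ATP5MF, ATP5MG, ATP5MK, ATP5PD and ATP5PO had no promoter peak, nor had ATP5IF1, the inhibitor of the enzyme running in reverse.

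The c-ring, which turns with the flow of protons, is encoded by 3 genes for an identical mature protein, and they differed in the lists. ATP5MC2 had the highest DMSO fold of any member, 7.56 with 19 tags (11.4 to 29.7), above 94.9% of the peaks in that list, and 10 tags (4.8 to 18.4) at 4.55-fold in AMG510. ATP5MC3 was called in trametinib alone, with 14 tags at 5.10-fold in intron 2, and ATP5MC1 in none. The ATP5MC2 peak lay in intron 1 (DMSO chr12:53675833-53676054) with summits 168 bp and 70 bp downstream of the canonical start, and was the member peak of highest DMSO fold whose centre overlapped no annotated exon. Its 151 bases around the DMSO summit are therefore printed on the strand of the gene in GRCh38, with CACGCG and the core of the YY1 motif in capitals, both as they read on this strand when the motif is on the other.
ATP5MC2, chr12:53675840-53675990, minus strand: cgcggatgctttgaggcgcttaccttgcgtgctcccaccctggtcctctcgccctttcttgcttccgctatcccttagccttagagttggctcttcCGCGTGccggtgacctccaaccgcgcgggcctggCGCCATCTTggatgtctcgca

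ATP5F1C, a gene of the central stalk, had 18 tags (10.7 to 28.4) at 7.23-fold in DMSO and 12 (6.2 to 21.0) at 4.85-fold in AMG510. These peaks lay in intron 1 (DMSO chr10:7788232-7788430) and close to the start of KIN. ATP5PF, a subunit of the outer stalk, had 16 tags (9.15 to 26.0) at 4.86-fold in DMSO and 17 (9.9 to 27.2) at 5.66-fold in AMG510. Its summits (DMSO chr21:25735482-25735658) lay within 1 kb of starts of both ATP5PF and GABPA, a transcription factor of nuclear respiratory genes. Of these ATP synthase genes ATP5MC2 and ATP5F1C had fewer tags in AMG510 than in DMSO and ATP5PF had not, with overlapping counting intervals for all 3.

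ATP5F1A had 13 tags (6.92 to 22.2) at 3.60-fold in DMSO, in coding exon 1, and 12 (6.2 to 21.0) at 4.51-fold in AMG510. These were not the same site: the AMG510 summit was 6462 bp away, at an upstream start next to HAUS1. ATP5F1E, with 15 tags at 4.70-fold, and ATP5ME, with 12 tags at 4.44-fold beside MYL5, were called in DMSO alone. In AMG510 alone, ATP5PB, a subunit of the outer stalk, had 15 tags at 5.52-fold beside WDR77, and ATP5F1D had 15 at 3.91-fold. ATP5MJ, a small subunit of the membrane part, had 10 tags at 3.37-fold in trametinib, above only 2.61% of that list.

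To ask whether c-MYC peaks of DMSO were also called under the drugs, the 20 DMSO members were followed into each drug list. In AMG510, 9 of 20 (45%, Wilson interval 25.8 to 65.8) had a promoter peak, where 43.1% of all genes with a DMSO promoter peak did. In trametinib, 5 of 20 (25%, 11.2 to 46.9) did, with 35.2% of all such genes. Of the 50 members without a DMSO promoter peak, 4 (8.0%) had one in AMG510 (ATP5F1D, ATP5PB, COX5A and COX6B1; all such genes 6.51%) and 4 (8.0%) in trametinib (ATP5MC3, ATP5MJ, COX10 and COX7C; all such genes 4.36%). Each interval held the share of all genes. Both comparisons use the same DMSO library.

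Peaks were paired by gene, so a pair need not be the same site. The paired peaks of COX16 and ATP5F1A in AMG510, and of UQCC2 and UQCRH in trametinib, did not overlap. For the 9 members called in both DMSO and AMG510, the counting intervals of the tags overlapped in 9 of 9. The tags were lower in AMG510 for 7 and the fold for 6, with a median log2 ratio of AMG510 to DMSO of -0.32 for tags and -0.22 for fold. Over all 2022 genes called in both lists, 82.1% had fewer tags and 70% a lower fold, with medians of -0.47 and -0.20. For the 5 members called in DMSO and trametinib (COX15, COX20, SDHAF2, UQCC2 and UQCRH), the intervals overlapped in 5 of 5, and tags and fold were each lower in trametinib for 3. Their medians were -0.32 and -0.28, beside -0.42 and -0.23 over 1650 genes. For none of these members did the counting intervals separate, and these intervals leave out differences between pull-downs.

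**Figure D3:**
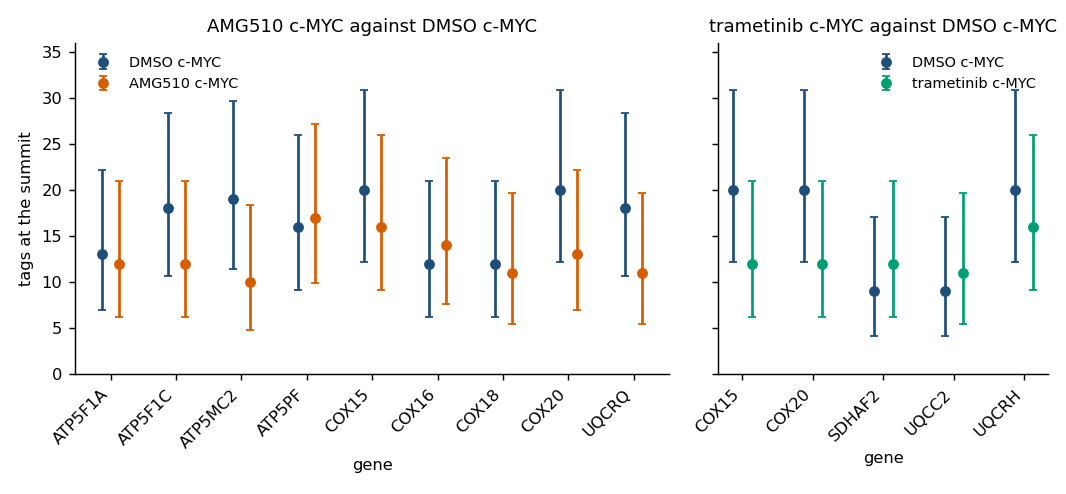
Tags at the summit (vertical axis, from 0) for the members with a promoter peak in DMSO and in AMG510 (left) or trametinib (right), with exact Poisson 95% intervals as bars. The DMSO peak nearest to the drug peak is plotted. For COX16 and ATP5F1A (left) and UQCC2 and UQCRH (right) the paired peaks do not overlap. The bars of the 2 libraries overlap for 9 of 9 members on the left and 5 of 5 on the right, and ATP5MC2 shows the widest gap, 19 tags against 10.

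A peak called for the same gene was not always at the same place. Overlaps and summit distances were computed for members only, so they cannot be called particular to these genes. In AMG510, 7 of the 9 members had a peak that overlapped a DMSO peak by at least 1 bp, the exceptions being COX16 and ATP5F1A, and the median distance between summits was 169 bp. In trametinib 3 of 5 overlapped (COX15, COX20 and SDHAF2), with a median distance of 274 bp. With summits required to lie within 200 bp, 5 of 20 DMSO members were kept in AMG510 (ATP5F1C, ATP5MC2, COX15, COX18 and UQCRQ) and 1 of 20 in trametinib (COX15).

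Some of these peaks could belong to more than 1 gene. In DMSO, 10 of 22 member peaks were also within 1 kb of the start of another protein-coding gene, as were 12.5% of all promoter peaks of that list, and the counts were 6 of 13 (all 12.2%) in AMG510 and 3 of 9 (all 13.2%) in trametinib. They include those of COX15 (with CUTC), UQCRH (LRRC41), ATP5F1C (KIN), SDHAF2 (CPSF7), ATP5PF (GABPA) and UQCC6 (TDG). A peak near several starts can enter the member count through any of its genes, while the share over all promoter peaks counts peaks. Member counts and these shares are therefore not on an equal footing, and no excess of shared peaks at members is read. When each summit was given only to the gene with the nearest start, 14 of 70 members (20%) had a promoter peak in DMSO where 21.9% of all genes did, 9 (12.9%, all 13.8%) in AMG510 and 6 (8.57%, all 10.5%) in trametinib. The share of members was then below that of all genes in each c-MYC list, where it had been above it. Both sets of shares were close to those of all genes, and no interval was computed for the nearest-gene shares. No order between members and all genes is therefore read from them. Which of the genes a shared peak belongs to cannot be told from a peak list.

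**Figure D4:**
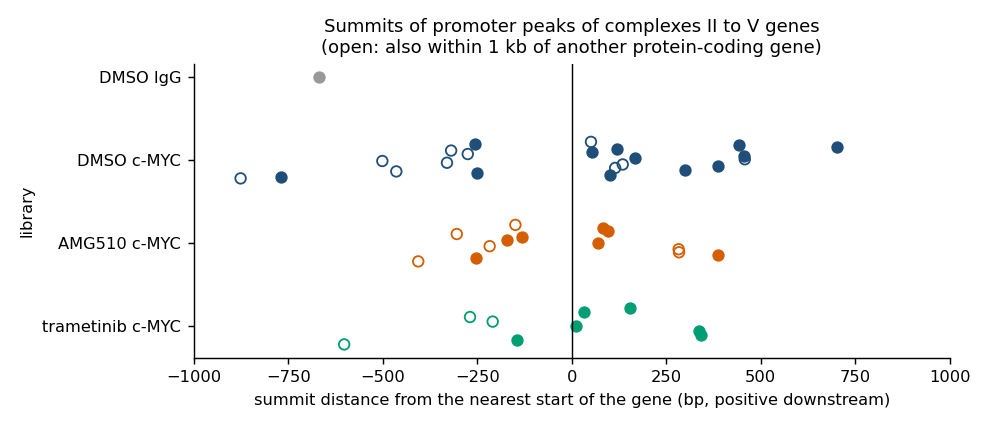
Distance of each member summit from the nearest start of its gene (horizontal axis, bp, positive downstream) in the 4 libraries (rows), with open circles where the start of another protein-coding gene is also within 1 kb. Vertical offsets within a row separate points and have no meaning. In DMSO 7 of 22 summits lie within 250 bp of the start, in AMG510 7 of 13 and in trametinib 5 of 9.

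Positions around the start are given as a description. Member peaks were measured to the nearest start of the member itself, and all promoter peaks to the nearest start of any protein-coding gene. For a peak shared with another gene the second measure can be shorter, so no order between members and all promoter peaks is read. The median distance was 310 bp for members and 168 bp over all promoter peaks in DMSO. It was 217 bp and 168 bp in AMG510, and 209 bp and 157 bp in trametinib. Within 250 bp of a start were 7 of 22 member peaks in DMSO (65.4% of all promoter peaks), 7 of 13 in AMG510 (65.3%) and 5 of 9 in trametinib (66.1%). The start sites searched were as many for members as for all genes, with a median of 3, and covered a median of 2.04 kb against 2.67 kb.

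For the 42 members with no c-MYC promoter peak, distances to the nearest summit were measured. The summit was within 5 kb for 3 of them in DMSO (SDHB, UQCC1 at 4246 bp and ATP5MK at 4583 bp), for 1 in AMG510 (UQCC5 at 3194 bp) and for 0 in trametinib. The median distance was 39.9 kb in DMSO, 73.0 kb in AMG510 and 140.0 kb in trametinib, and 295.0 kb in IgG. These distances were not measured for all genes, and the lists differ in their number of peaks and in the share at promoters. No change under the drugs is read from them. For ATP5F1B the nearest DMSO summit was 13236 bp away and for SDHA 20381 bp.

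Promoter sequence was then compared with binding, using the RefSeq windows of GRCh38.p14 from 250 bases before to 50 after each gene's start, which were given for 56 of the 70 members and 15238 genes. Both strands were searched for the E-box CACGTG, for its variant CACGCG, and for the NRF1 core GCGCANGCG, the ETS core CCGGAAG (the motif family of GABPA) and the YY1 core AAGATGGCG. NRF1, GABPA and YY1 are known regulators of respiratory genes. The NRF1 core was found in 21 of 56 members (37.5%, all promoters 11.1%), the ETS core in 20 (35.7%, all 14.4%) and the YY1 core in 5 (8.93%, all 2.81%). CACGTG was found in 7 (12.5%, all 8.86%), namely ATP5MC1, ATP5ME, ATP5PB, COX14, UQCC5, UQCC6 and UQCR11, and CACGCG in 16 (28.6%, all 15.0%). CACGCG and the NRF1 core can overlap, and did so in 6 members.

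**Figure D5:**
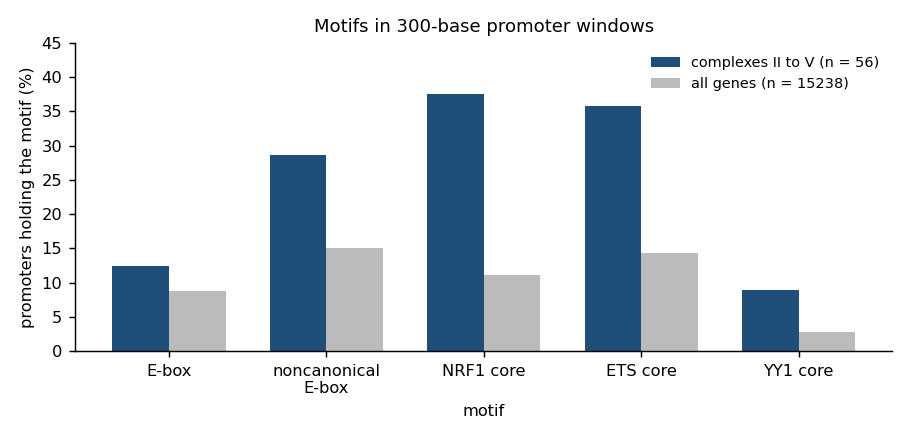
Share of promoter windows of 300 bases that hold each motif (vertical axis, percent) for the 56 members with a window and for all 15238 genes. The bars of members stand above those of all genes for each of the 5 motifs, with the NRF1 core at 37.5% against 11.1%.

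Motif matches were then set beside the DMSO peaks. Of the 7 members with CACGTG in the window, 3 had a DMSO promoter peak (ATP5ME, UQCC6 and UQCR11), and of the 49 without it, 16 did. Over all genes the shares were 38.4% and 24.4%. No DMSO peak of these 3 members held CACGTG within 100 bp of its summit. ATP5PF and COX20, which had such a DMSO peak, held no CACGTG in the window and are counted among the 49. All counts here join a window to a gene, not to a summit, so they do not place the motif under the peak. Of the 16 members with CACGCG, 7 had a DMSO peak and of the 40 without it 12 did (all genes 38.9% and 23.3%). For the NRF1 core the counts were 8 of 21 and 11 of 35 (all genes 38.1% and 24.1%), for the ETS core 9 of 20 and 10 of 36 (34.6% and 24.1%) and for the YY1 core 2 of 5 and 17 of 51 (40.7% and 25.2%). ATP5MC1, COX14 and UQCC5 held CACGTG and had no promoter peak in any c-MYC list. GC content of the windows was similar for members and all genes, with medians of 62.3% and 63.0%, and was 65.3% for members with a DMSO peak and 61.0% for the others.

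Related genes were counted in the same way from lists made for the pathway, with earlier results of these data known. Their shares are therefore a description only, and no interval was computed for them. The share of all genes was 24.3% in DMSO, 15.4% in AMG510 and 11.8% in trametinib. Of 33 other genes of complexes II to V, 21 (63.6%) had a DMSO promoter peak, 11 (33.3%) one in AMG510 and 9 (27.3%) one in trametinib. They are assembly and expression factors such as SURF1, SCO1, SCO2, BCS1L and LRPPRC, apart from NDUFA4, a complex IV subunit that had no c-MYC promoter peak and is also counted among the NDUF symbols. Of 15 regulators of mitochondrial biogenesis, the counts were 12 (80.0%), 7 (46.7%) and 5 (33.3%). NRF1, GABPB1, PPARGC1B and PPRC1, which encode transcription factors and coactivators of nuclear respiratory genes, had promoter peaks in all 3 c-MYC lists, TFAM, POLRMT and POLG in DMSO alone, and PPARGC1A, TFB1M and TFB2M in none. Of the 47 genes with symbols in NDUF, complex I genes apart from NDUFA4, 15 (31.9%) had one in DMSO, 9 (19.1%) in AMG510 and 4 (8.51%) in trametinib. These shares stand beside 28.6%, 18.6% and 12.9% of the 70 members, and the differences between lists were not tested.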

How the data were processed

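c-MYC ChIP-seq was analysed in 4 libraries, grouped by sample titles. According to the methods and processing notes, the authors used Trimmomatic 0.39 for trimming, aligned to GRCh38 with BWA 0.7.17, filtered with SAMtools 1.9, removed duplicates with Picard, converted files with bedtools 2.27.1 and called peaks for each library with MACS2 2.2.7.1 (q-value limit 0.05). The deposited columns used were the score (10 times the −log10 q-value), the fold enrichment, which is a ratio, and the p-value and q-value of each summit, deposited as −log10.

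Whole-number tags at summits were recovered from fold and p-value for 100.0% of peaks (relative tolerance 0.001), and depth from the genome-wide background and a genome size of 2700000000 bp. Tags can include both reads of a pair, so the exact Poisson 95% intervals are too narrow. Intervals cover counting error only. Starts and exons came from GENCODE 44, and the scripts were tested on simulated data. Python 3.11.15, pandas 2.3.3, numpy 2.4.6, scipy 1.17.1, pysam 0.24.0 and matplotlib 3.10.9 were used.

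Members and lists were chosen with earlier results of these data known. Values are given in full for members called in all 3 c-MYC lists, for the 8 of highest DMSO fold, for up to 6 per drug list that were not in DMSO, and for any in IgG. Sequences were given for CACGTG near DMSO summits, with 12 bases on each side. Other members and sites are named to complete a group. With 1 library per group, no test was run. Alternatives varied the promoter distance, transcripts, thresholds, overlap, motif window and list length. Tracks and reads were not analysed here.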

Additional observations from a re-analysis of the deposited data

How the results depend on the processing

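Of 69 alternatives for 9 results, 16 moved a count by over 1.5 times or took a share outside the 95% interval of its reported value, and 53 did not. Distances of 500 bp or 2000 bp, canonical starts or every transcript, and a stricter q-value left the c-MYC counts within 1.5 times. Above 5-fold the member counts in DMSO, AMG510 and trametinib were 6, 4 and 2, and above a score of 60 they were 5, 1 and 1, where 9.84%, 2.98% and 2.94% of all genes passed. With each list cut to its 5431 strongest peaks, the DMSO count was 13, with 18.2% of all genes. The IgG count fell to 0 at 500 bp, above 5-fold, above a score of 60 and without SDHAF1. The share of DMSO members also called fell to 25% in AMG510 and 5% in trametinib with summits within 200 bp, and was 66.7% (4 of 6) in AMG510 for DMSO peaks above 5-fold. In trametinib it was 15% with overlap required and 14.3% with the nearest gene only. Under these settings the share of DMSO genes also called was not computed for all genes. The E-box shares rest on 0 to 2 peaks and depended on the window and motif. In DMSO the share was 0% within 50 bp, 22.7% within 200 bp and 27.3% with CACGCG counted. In AMG510 it was 7.69% within 200 bp and 30.8% with CACGCG, and in trametinib 33.3% with CACGCG. Stricter settings admit fewer peaks by construction, and the cause of the other shifts was not tested. Assigning each summit to the nearest gene only, which kept 14, 9 and 6 members, and leaving out SDHAF1 were chosen after seeing the data. No paired analysis was possible because every treatment had a single c-MYC library, so there was also no replicate to leave out. Near the calling limit of 7 to 8 tags, a peak called in 1 list and not in another can differ by few tags.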
